A study of Rattus norvegicus with 6 samples.

Results

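The urea transporter genes Slc14a1 and Slc14a2 were followed in the inner medulla of the rat kidney, across dDAVP withdrawal, dDAVP infusion and vehicle. Members were the probe sets whose only gene symbol in the array's annotation is Slc14a1 or Slc14a2. There were 2 such probe sets, 1 for each gene, among 28524 on the array, and they stand for 2 of the 14168 genes that could be named. All tissue came from male Sprague-Dawley rats of 200 to 250 g on a fixed ration with free water. Every rat carried an osmotic minipump under the skin for 5 d. In the withdrawal group the pump delivered dDAVP at 40 ng/h for 5 d, was then taken out under light enflurane anaesthesia, and tissue was taken 3 h later, after the rats had woken. The dDAVP group had the same 40 ng/h until the end. The vehicle group had saline at 1 µl/h. Each group had 2 arrays of total RNA. The labels give no genotype and no pooling. Whether each array holds RNA of its own animal is not stated, so p-values measure only the spread between these arrays. A pump removal is described for the withdrawal group only, so that procedure and the end of dDAVP cannot be told apart.

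Urea transporters are membrane channels that let urea cross a cell membrane down its gradient, and in the inner medulla they keep urea in the interstitium, where it helps to concentrate the urine. Slc14a2 encodes the UT-A transporters. Its longer products sit in the terminal collecting duct, where vasopressin raises urea permeability through the V2 receptor and cyclic AMP, and a shorter product sits in the thin descending limb. Slc14a1 encodes UT-B, the urea transporter of red blood cells and of the endothelium of the descending vasa recta, where it serves countercurrent exchange. dDAVP (desmopressin) is an agonist selective for the V2 receptor.

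The 2 genes are neighbours on rat chromosome 18. In the RefSeq annotation of assembly GRCr8, Slc14a1 (gene 54301) spans positions 73840568 to 73883925 and Slc14a2 (gene 54302) spans 73887575 to 74314546, with 3.65 kb between them. The array's build is not given in the sources used here, so these positions belong to RefSeq and not to the probes. The annotation of the Slc14a2 probe set cites 3 RefSeq transcripts and that of Slc14a1 cites 1. RefSeq lists starts of Slc14a2 that lie 393 kb apart, and 1 value per array cannot tell their products apart. The 250 bases before each start in the promoter table are shown, since they are where transcripts of these genes can begin. The table holds 1 start of Slc14a1, which lies inside the span of the gene, so starts further upstream are not shown or searched. All are on the minus strand and come from RefSeq's GRCr8 table. Lower case is plain sequence, and capitals mark the letters TATAAA, the TATA box motif. Whether they act as a TATA box here was not tested.
Slc14a1, chr18:73864644-73864893: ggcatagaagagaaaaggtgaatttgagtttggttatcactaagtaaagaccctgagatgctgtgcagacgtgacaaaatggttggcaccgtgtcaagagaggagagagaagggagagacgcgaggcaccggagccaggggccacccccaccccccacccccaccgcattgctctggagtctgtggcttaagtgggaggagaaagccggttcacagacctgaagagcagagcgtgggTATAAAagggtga
Slc14a2 start nearer to Slc14a1, chr18:73921585-73921834: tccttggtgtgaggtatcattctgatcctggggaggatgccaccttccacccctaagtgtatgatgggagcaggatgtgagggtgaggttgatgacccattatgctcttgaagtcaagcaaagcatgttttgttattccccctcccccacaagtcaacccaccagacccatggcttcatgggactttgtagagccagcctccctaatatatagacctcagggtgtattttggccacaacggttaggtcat
Slc14a2 distant start, chr18:74314547-74314796: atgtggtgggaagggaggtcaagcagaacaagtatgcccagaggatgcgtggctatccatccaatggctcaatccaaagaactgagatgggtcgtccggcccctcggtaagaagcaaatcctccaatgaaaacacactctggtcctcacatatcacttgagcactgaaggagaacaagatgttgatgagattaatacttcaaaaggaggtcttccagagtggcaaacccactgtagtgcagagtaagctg
Both strands were searched for the cAMP response element TGACGTCA, for its shorter core TGACG, for TATAAA and for the tonicity-responsive enhancer. The Slc14a1 window held TATAAA from 13 to 8 bases before the start. No other match was found in these windows, which says only that these letters are not there. Of 33469 promoter windows of the same length in the table, 12.9% held TATAAA, 1.59% the full cAMP response element, 18.2% its core and 15.8% the tonicity-responsive enhancer. The core lies inside the full element, so those counts overlap.

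The arrays themselves differed in ways that touch both genes. The median gene was shifted by -0.11 log2 in dDAVP minus vehicle, by 0.14 in withdrawal minus dDAVP and by 0.03 in withdrawal minus vehicle. A cyclic loess normalization brought these shifts to within 0.01. dDAVP replicate 2 and vehicle replicate 1 stood apart from the other 4 arrays in earlier results of these data, so values are also given without them. Over all genes these arrays correlated with each other (r = 0.994) more closely than with the other array of their own group (0.985 for dDAVP and 0.987 for vehicle). Such closeness across groups was not particular to this pair. Withdrawal replicate 1 correlated at 0.996 with vehicle replicate 2 and at 0.991 with withdrawal replicate 2. By the median absolute difference, dDAVP replicate 2 was closer to vehicle replicate 2 (0.123 log2) than to vehicle replicate 1 (0.144 log2). As a check of the tissue label, Aqp2, the water channel of the collecting duct, lay between 13.14 and 13.40 log2 in the 6 arrays. Aqp1, the water channel of the thin descending limb and vasa recta, was not analysed here. How far any probe set lay above background is not known from these values. In total tissue RNA, fewer cells of a type and less RNA per cell cannot be told apart.

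Slc14a1, the vasa recta and red cell transporter, was lowest after withdrawal. After withdrawal its intensity on the linear scale was 648 and 398. Under dDAVP it was 1069 and 988, and under vehicle 1036 and 676. On the log2 scale these are 9.34 and 8.64 for withdrawal, 10.06 and 9.95 for dDAVP, and 10.02 and 9.40 for vehicle. Both withdrawal arrays therefore lay below the other 4, although withdrawal replicate 1 was only slightly below vehicle replicate 2. After cyclic loess these last values were 9.36 and 9.35, so withdrawal and vehicle then overlapped. Both withdrawal arrays lay below the other 4 in 3.9% of all genes as deposited, and in 7.47% after loess. The dDAVP arrays were close together and vehicle replicate 1 stood between them.

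Slc14a2, the collecting duct and thin limb transporter, did not follow the groups. After withdrawal its intensity was 5882 and 5041. Under dDAVP it was 5670 and 3711, and under vehicle 3548 and 5983. The log2 values were 12.52 and 12.30 for withdrawal, 12.47 and 11.86 for dDAVP, and 11.79 and 12.55 for vehicle. The low arrays were dDAVP replicate 2 and vehicle replicate 1, the pair that stands apart. They averaged 11.83 log2, against 12.46 ± 0.11 (SD, n = 4) in the other arrays, and lay at least 0.44 log2 below each of these (0.40 after loess). Of all genes, 12.7% were lower in this pair than in the other 4 arrays (15.4% after loess), and 1.02% by as much as Slc14a2 (1.3% after loess).

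**Figure D1:**
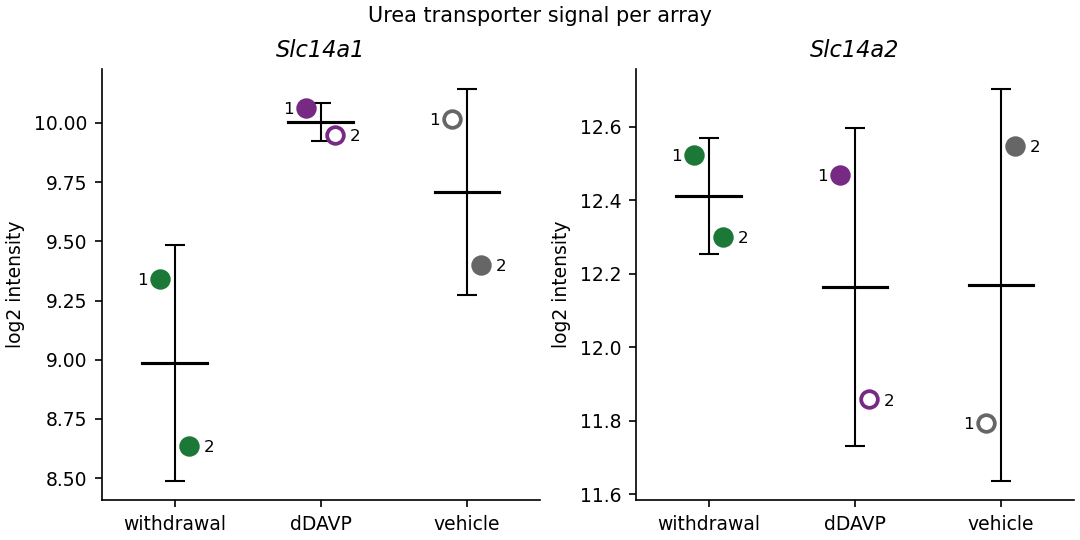
Log2 intensity of Slc14a1 (left) and Slc14a2 (right) in each array of the withdrawal, dDAVP and vehicle groups, with the replicate number beside each point; horizontal bars are group means and error bars the SD of 2 arrays. Open circles are dDAVP replicate 2 and vehicle replicate 1. Slc14a1 was lowest in the withdrawal arrays, at 9.34 and 8.64, whereas Slc14a2 was lowest in both open circles, at 11.86 and 11.79.

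Both genes varied more between arrays of a group than most genes. The residual SD over the 3 groups was 0.39 log2 for Slc14a1 and 0.41 log2 for Slc14a2, larger than in 96.4% and 96.9% of genes. The arrays of a group differed in Slc14a1 by 1.63-fold in withdrawal, by 1.08-fold in dDAVP and by 1.53-fold in vehicle. For Slc14a2 the gap was 1.17-fold in withdrawal, 1.53-fold in dDAVP and 1.69-fold in vehicle.

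The effect of the infusion itself was asked from dDAVP against vehicle. Slc14a1 averaged 10.01 ± 0.08 log2 in dDAVP and 9.71 ± 0.44 in vehicle (SD, n = 2 each). The arrays of both transporters overlapped between these groups, whereas over all genes they did not overlap in 4.8% that were higher and 40.6% that were lower in dDAVP (15.2% and 14.8% after loess). The Slc14a1 difference was 0.30 ± 0.28 (SE), with a 95% interval from -0.38 to 0.98, and it did not pass (limma, adjusted p = 0.650). Without vehicle replicate 2 it was -0.011, and without vehicle replicate 1 it was 0.61. Slc14a2 averaged 12.16 ± 0.43 log2 in dDAVP and 12.17 ± 0.53 in vehicle. Its difference was -0.0062 ± 0.30, with an interval from -0.72 to 0.71 (adjusted p = 0.994), and its sign turned after loess (0.012), after quantile normalization (0.015) and with array medians subtracted (0.11). That interval spans 0.606-fold to 1.64-fold, so a moderate change of Slc14a2 in either direction was not detectable with these arrays. Without dDAVP replicate 2 and vehicle replicate 1 the differences were 0.66 for Slc14a1 and -0.08 for Slc14a2, with 1 array left in each of these groups.

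The comparison of withdrawal with dDAVP asked what differs 3 h after the pump was removed. Slc14a1 averaged 8.99 ± 0.50 log2 in withdrawal and 10.01 ± 0.08 in dDAVP, and the arrays did not overlap. The difference was -1.02 ± 0.28 (SE), which is 2.02-fold lower, with a 95% interval from -1.70 to -0.34 or from 3.25-fold to 1.26-fold lower. Relative to the median gene, which was shifted upwards here, the difference was larger with array medians subtracted (-1.14) and similar after loess (-1.03). It did not pass the test over all genes (limma, adjusted p = 0.260, the smallest adjusted p reached by any gene in this comparison, with an unadjusted p = 0.0104). Slc14a1 was 430th of 14168 genes by p, and 0.289% of genes had a larger difference in either direction. Over all genes the arrays did not overlap in 8.06% that were lower and 49.6% that were higher in withdrawal (19.1% and 20.3% after loess). The size rested in part on withdrawal replicate 2, without which the difference was -0.67, and it was -1.37 without withdrawal replicate 1. Without the pair that stands apart it was -1.07.

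Slc14a2 averaged 12.41 ± 0.16 log2 in withdrawal and 12.16 ± 0.43 in dDAVP, with overlapping arrays. The difference was 0.25 ± 0.30 (interval from -0.47 to 0.96, limma adjusted p = 0.616). It was -0.058 without dDAVP replicate 2, the low array of that group.

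The comparison of withdrawal with vehicle set the stopped infusion against rats never given dDAVP. Slc14a1 averaged 8.99 ± 0.50 log2 in withdrawal and 9.71 ± 0.44 in vehicle. The difference was -0.72 ± 0.28 (SE), 1.65-fold lower, with a 95% interval from -1.40 to -0.04, and it did not pass (limma, adjusted p = 0.995). Over all genes the arrays did not overlap in 13.1% that were lower and 17.6% that were higher in withdrawal (16% and 16.1% after loess). The difference was -0.37 without withdrawal replicate 2, -0.41 without vehicle replicate 1 and -1.03 without vehicle replicate 2. Slc14a2 averaged 12.41 ± 0.16 log2 in withdrawal and 12.17 ± 0.53 in vehicle, a difference of 0.24 ± 0.30 (interval from -0.48 to 0.96, adjusted p = 0.995). Without vehicle replicate 1 it was -0.14. The withdrawal comparisons share their withdrawal arrays, and the dDAVP arrays enter those with withdrawal and with vehicle, so the differences of a gene are not independent of each other.

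**Figure D2:**
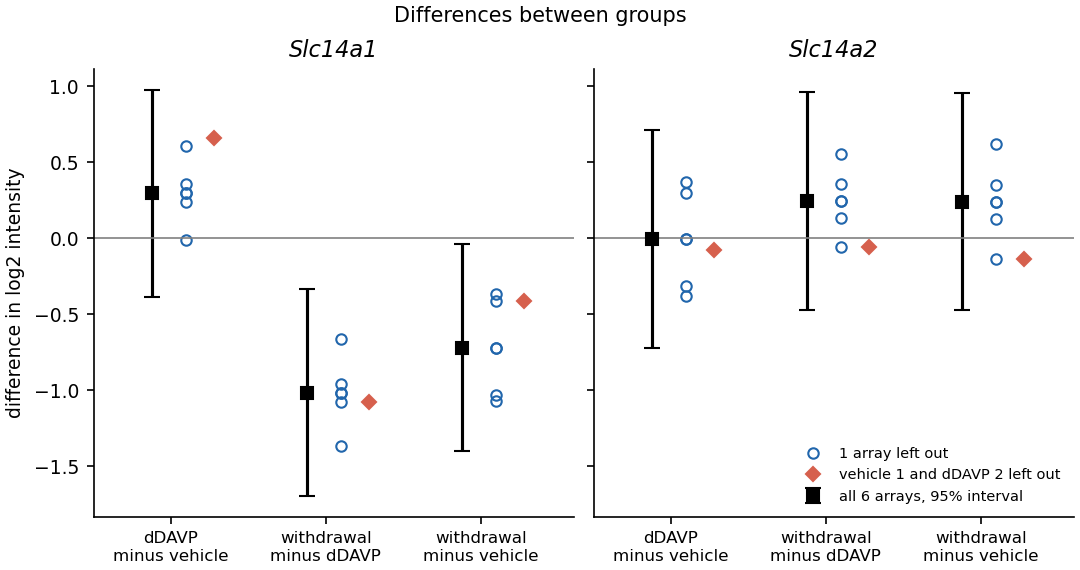
Differences in log2 intensity between groups for Slc14a1 (left) and Slc14a2 (right). Squares with bars are the limma estimates from all 6 arrays with their 95% intervals, open circles the estimates with each array left out in turn, and diamonds those without dDAVP replicate 2 and vehicle replicate 1. Slc14a1 stayed below 0 in withdrawal minus dDAVP, between -1.37 and -0.67 with single arrays left out, whereas the Slc14a2 estimates lay on both sides of 0 in all 3 comparisons.

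In order of group means Slc14a1 ran from dDAVP over vehicle to withdrawal, and Slc14a2 from withdrawal over vehicle to dDAVP. No neighbours in either order differed by a passing test. A moderated F-test over the 3 groups gave an adjusted p = 0.489 for Slc14a1 and 0.797 for Slc14a2. Over all 14168 genes 0% passed in each of the 3 comparisons and 0 passed the F-test. An unadjusted p under 0.05 was reached by 1052 genes in dDAVP minus vehicle (7.43%, with 0.572% higher and 6.85% lower) and by neither transporter. In withdrawal minus dDAVP it was reached by 2686 genes (19%, with 17.3% higher and 1.64% lower), Slc14a1 among them. In withdrawal minus vehicle it was reached by 253 genes (1.79%, with 0.642% higher and 1.14% lower), again with Slc14a1, and by 1224 genes in the F-test. In that comparison Slc14a1 no longer reached that threshold after loess, after quantile normalization, without withdrawal replicate 2, without vehicle replicate 1 or without both arrays that stand apart.

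Whether the transporters changed unequally was asked from the log2 ratio of Slc14a1 over Slc14a2 within each array, in which a shift common to both cancels. The mean ratio differed by -1.26 in withdrawal minus dDAVP, by -0.96 in withdrawal minus vehicle and by 0.30 in dDAVP minus vehicle. In an exact two-sided permutation test the p-values were 0.333, 0.333 and 1 (0.5, 0.5 and 1 adjusted over the 3 comparisons). The smallest p that 2 arrays against 2 allow is 0.333, so this test cannot pass. In withdrawal minus dDAVP the difference in ratio ran from -1.51 to -1.02 with single arrays left out. Over the 6 arrays the log2 values of the genes had a Pearson r of -0.43 (exact permutation p = 0.361) and a Spearman rho of -0.31 (exact permutation p = 0.564), the only correlation computed between the members. Without withdrawal replicate 2 and dDAVP replicate 1, the arrays farthest from the Slc14a1 median, r was -0.996 over 4 arrays, so its size depended on which arrays were held.

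The genes with the pattern most like Slc14a1 over the 6 arrays were Slc16a3, a lactate and proton exporter (Pearson r = 0.997), Atp6v0e2, a subunit of the vacuolar proton pump (0.988), Pfkl, a phosphofructokinase of glycolysis (0.981), the tetraspanin Tspan33 (0.979) and Tmem80 (0.973). Likeness was ranked by r among 13970 named genes, and 102 genes had an r above 0.9. How many unrelated genes would reach such an r over only 6 arrays was not computed. The count alone therefore shows no shared pattern. Slc16a3 was at 8.54 and 8.37 log2 in withdrawal, 8.76 and 8.74 in dDAVP, and 8.74 and 8.57 in vehicle. Its order of arrays was close to that of Slc14a1 (Spearman rho = 0.94), but it spanned only 0.39 log2. After loess 1 of these 5 genes, Tspan33, was still among the 5 most like Slc14a1.

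The genes most like Slc14a2 were Apex1, a DNA repair endonuclease (r = 0.999), Nprl2, a component of the GATOR1 complex that restrains mTORC1 signalling (0.997), Tacc1 (0.996), the sphingomyelinase Smpd2 (0.996) and the lysosomal arylsulfatase Arsb (0.995). They shared its low values in dDAVP replicate 2 and vehicle replicate 1. Arsb, for example, was at 10.79 and 10.58 log2 in withdrawal, 10.76 and 10.32 in dDAVP, and 10.28 and 10.78 in vehicle. An r above 0.9 was found for 395 genes, again without a background computed for unrelated genes. After loess 2 of the 5 remained among the 5 most like Slc14a2, and Tacc1, which spanned only 0.15 log2, was no longer near the top (r = 0.60). These likenesses rest on 6 arrays that share the group and array effects described above.

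**Figure D3:**
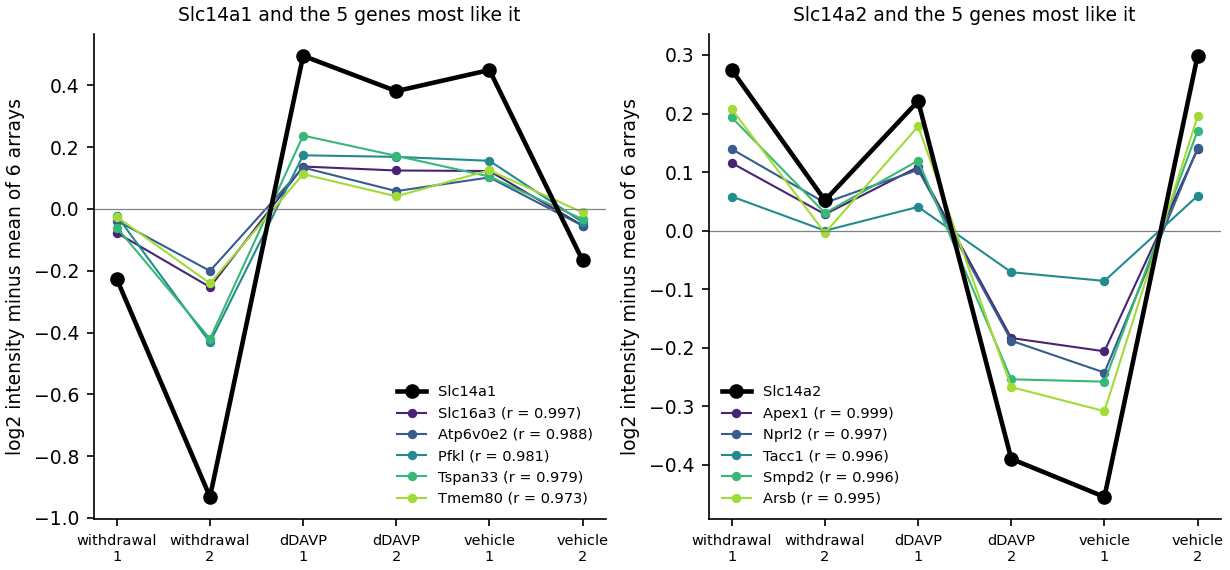
Log2 intensity minus the gene's mean over the 6 arrays, by array, for Slc14a1 (left, black) and Slc14a2 (right, black) and the 5 genes most like each (colours, with Pearson r). The genes like Slc14a1 are lowest in withdrawal replicate 2, and those like Slc14a2 in dDAVP replicate 2 and vehicle replicate 1, with smaller ranges than the transporters themselves.

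The cell types that carry these transporters were read from marker lists. Of 18 listed endothelial and vasa recta markers 15 were measured, and their summed intensity was 11303 to 12587 in withdrawal, 13089 to 14856 in dDAVP and 13067 to 14077 in vehicle, so withdrawal was lowest here as it was for Slc14a1. The median difference of the 15 genes was -0.09 in withdrawal minus dDAVP, where the median of all genes was 0.14, and -0.09 in withdrawal minus vehicle, against 0.03 for all genes (-0.16 and -0.08 after loess). Without dDAVP replicate 2 and vehicle replicate 1 these medians were 0.15 and -0.03, so the first turned. None of the 15 passed. Tek, the angiopoietin receptor, was at 10.38 and 10.25 log2 in withdrawal and 10.63 and 11.09 in dDAVP (difference -0.55 ± 0.19, limma adjusted p = 0.260). Plvap, a protein of fenestrated endothelium, differed by -0.17 ± 0.11. Tek was also 0.54 log2 lower in withdrawal than in vehicle, where its arrays were at 11.04 and 10.65 log2. In withdrawal minus dDAVP the endothelial gene higher without overlap was Cdh5 (0.20, and 0.00035 after loess), and among genes without overlap in dDAVP minus vehicle Plvap was the higher (0.13 ± 0.11) and Ehd3 the lower with the smallest p (-0.47 ± 0.20). Both withdrawal arrays were below the other 4 in 2 of the 15, Pecam1 and Tek, against 3.9% of all genes (7.47% after loess). That was not particular to this list. It held for 2 of 12 thin limb markers, 3 of 27 V2 receptor pathway genes, 1 of 12 red cell markers and 1 of 10 tonicity genes. The count was 0 of 16 principal cell, 0 of 10 intercalated cell and 0 of 8 pericyte and smooth muscle markers. Of 10 other urea and ammonia genes it was 0 as well.

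Red blood cell markers were also lowest in sum after withdrawal. Their summed intensity over 12 measured of 20 listed was 6136 to 6713 in withdrawal, 7571 to 10012 in dDAVP and 6861 to 9931 in vehicle. The highest sums, 10012 and 9931, were those of dDAVP replicate 2 and vehicle replicate 1, in which Slc14a2 was low, against at most 7571 in the other 4 arrays. The brightest marker in these sums was the globin Hbb-b1, at 11.45 and 11.51 log2 in withdrawal, 11.58 and 12.02 in dDAVP, and 12.06 and 11.67 in vehicle. The globin Hba-a3 was at 9.98 and 10.16 log2 in withdrawal, 10.48 and 11.63 in dDAVP, and 11.64 and 9.57 in vehicle. Its arrays differed more within dDAVP and within vehicle than those of Hbb-b1. The globins have near-identical copies, so their values are uncertain. Slc4a1, the anion exchanger of red cells and acid-secreting intercalated cells, was at 10.25 and 8.65 log2 in withdrawal, 10.59 and 9.58 in dDAVP, and 8.43 and 10.24 in vehicle, a wide spread within every group. Alas2, which makes haem in red cell precursors, differed by -0.34 ± 0.42 in withdrawal minus dDAVP. The median difference of the list was 0.01 in withdrawal minus dDAVP, against 0.14 for all genes, and turned to -0.12 after loess. Ank1 was higher there without overlap (0.30 ± 0.10, and 0.09 after loess). The list median was -0.05 in withdrawal minus vehicle, where Hbb-b1 was lower (-0.38 ± 0.19), and -0.13 in dDAVP minus vehicle, where it turned to 0.02 after loess. Rhag was lower in dDAVP minus vehicle (-0.19 ± 0.09, and -0.04 after loess). Hbb-b1 was also lower in withdrawal minus dDAVP (-0.33 ± 0.19), and none passed. Without dDAVP replicate 2 and vehicle replicate 1 the medians were 0.19 in withdrawal minus dDAVP and 0.09 in withdrawal minus vehicle. No measured marker of either list was at 0, the faintest having a mean of 6.57 log2 among endothelial and 6.08 among red cell markers. The part of endothelial and red cell RNA in the Slc14a1 and Slc14a2 values was not tested.

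**Figure D4:**
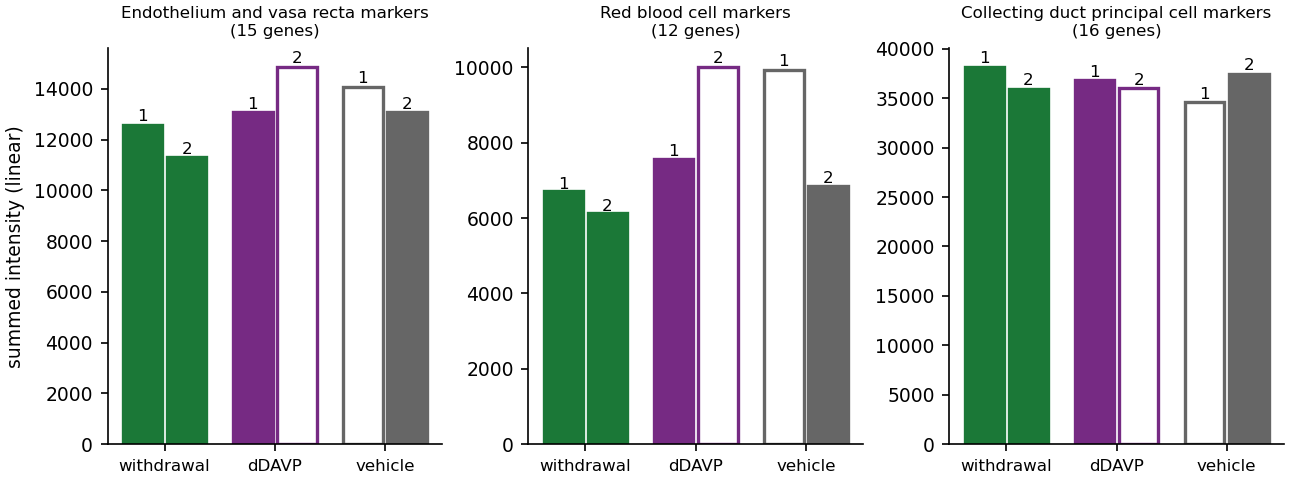
Summed linear intensity of the measured endothelial and vasa recta markers (15 genes), red blood cell markers (12 genes) and collecting duct principal cell markers (16 genes) in each array, by group; numbers above the bars are replicates and open bars are dDAVP replicate 2 and vehicle replicate 1. Endothelial and red cell sums are lowest in withdrawal, and red cell sums are highest in the open bars.

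The pair of arrays with low Slc14a2 also differed in these lists gene by gene. In dDAVP replicate 2 and vehicle replicate 1, 7 of the 15 endothelial and 7 of the 12 red cell markers were above all other arrays (10 and 6 after loess). None of either list was below them. Over all genes 10.9% were above and 12.7% below (15% and 15.4% after loess). Of 16 measured principal cell markers, which label the cells that line most of the collecting duct, 5 were below the other arrays in this pair (Aqp4, Fxyd4, Gata3, Krt8 and Kcnj1) and 1, Nr3c2, was above. After loess 4 principal cell markers were below and 2 above. Of 12 measured thin limb markers 5 were above and 2 below. Counts in the other lists were mixed beside these shares of all genes. Of 27 measured V2 receptor pathway genes 6 were above and 8 below (8 and 8 after loess). Of 10 tonicity genes 1 was above and 3 below, also after loess. Among 8 pericyte and smooth muscle markers 1 was above and 3 below (2 and 2 after loess). Of 10 intercalated cell markers 0 were above and 0 below (0 and 1 after loess). Of 10 other urea and ammonia genes 0 were above and 1 below (3 and 1 after loess). The part of cell composition in the low Slc14a2 of these arrays was not tested.

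Markers of the cells that carry UT-A had no passing difference between the groups. Of 17 principal cell markers 16 were measured. Their median difference as deposited was -0.09 in dDAVP minus vehicle, 0.18 in withdrawal minus dDAVP and 0.06 in withdrawal minus vehicle. That was close to the median gene in each (-0.11, 0.14 and 0.03). After loess the list medians were -0.03, 0.14 and 0.04. The median gene in withdrawal minus dDAVP was then at 0.0028, so the list lay above it. Without dDAVP replicate 2 and vehicle replicate 1 the list medians were -0.23, 0.21 and -0.04, so the last turned. Avpr2, the V2 receptor, was at 11.45 and 11.04 log2 in withdrawal, 11.63 and 11.71 in dDAVP, and 11.59 and 11.32 in vehicle. Its difference was -0.43 ± 0.16 in withdrawal minus dDAVP (limma adjusted p = 0.260) and 0.22 ± 0.16 in dDAVP minus vehicle. Over the 6 arrays the Pearson r of Avpr2 was 0.96 with Slc14a1 and -0.44 with Slc14a2. In the same list Krt8 had an r of -0.95 with Slc14a1, and no link was tested. Aqp2 differed by -0.16 ± 0.10 and 0.15 ± 0.10 in the same comparisons. The keratin Krt8 differed by 0.42 ± 0.16 in withdrawal minus dDAVP and by 0.31 ± 0.16 in withdrawal minus vehicle, the transcription factor Elf5 by -0.28 ± 0.17 in dDAVP minus vehicle, and the mineralocorticoid receptor Nr3c2 by -0.27 ± 0.15 in withdrawal minus vehicle. Of 16 thin limb markers 12 were measured, with medians of -0.16, -0.01 and -0.18 in dDAVP minus vehicle, withdrawal minus dDAVP and withdrawal minus vehicle (-0.08, -0.07 and -0.18 after loess). The median of all genes was -0.11, 0.14 and 0.03 as deposited. In withdrawal minus vehicle 7 of the 12 were lower without overlap and 0 higher, against 13.1% and 17.6% of all genes. Without dDAVP replicate 2 and vehicle replicate 1 the thin limb median in that comparison was -0.09. Bsnd, the chloride channel subunit barttin, was 0.36 log2 lower in withdrawal than in dDAVP and 0.31 lower than in vehicle (SE 0.10 each), and Prox1 differed by -0.33 ± 0.13 in dDAVP minus vehicle (-0.17 after loess) and 0.25 ± 0.13 in withdrawal minus dDAVP (0.03 after loess). No gene of these lists passed.

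Genes that make or move urea and ammonia showed no passing difference. Of 13 listed, which include both transporters, 10 others were measured, with medians of -0.15 in dDAVP minus vehicle, 0.11 in withdrawal minus dDAVP and -0.09 in withdrawal minus vehicle. After loess these were -0.03, -0.06 and -0.10, so the second turned. Arg2, the mitochondrial arginase that forms urea from arginine in the kidney, was at 10.61 and 10.70 log2 in withdrawal, 10.30 and 10.87 in dDAVP, and 10.76 and 10.82 in vehicle. Its groups overlapped in withdrawal against dDAVP, and its differences were -0.20 ± 0.18 in dDAVP minus vehicle and 0.07 ± 0.18 in withdrawal minus dDAVP. The cytosolic arginase Arg1 differed by -0.28 ± 0.13 in dDAVP minus vehicle (-0.11 after loess), the red cell ammonia transporter Rhag by 0.23 ± 0.09 in withdrawal minus dDAVP (0.03 after loess), and glutamate dehydrogenase Glud1 by -0.10 ± 0.11. Odc1, which makes putrescine from ornithine, differed by 0.48 ± 0.24 and the agmatinase gene Agmat by -0.14 ± 0.13 in withdrawal minus vehicle.

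The V2 receptor pathway and the tonicity genes, both known to act on UT-A in the collecting duct, also had no passing member. Of 29 pathway genes 27 were measured, with medians of -0.0044 in dDAVP minus vehicle, 0.07 in withdrawal minus dDAVP and -0.01 in withdrawal minus vehicle. After loess these were 0.05, -0.06 and -0.02, so the first and the second turned. Prkacb, a catalytic subunit of protein kinase A, was at 9.17 and 8.89 log2 in withdrawal, 9.58 and 9.44 in dDAVP, and 9.32 and 9.30 in vehicle. Its arrays did not overlap in any comparison, with a difference of -0.48 ± 0.12 in withdrawal minus dDAVP and 0.20 ± 0.12 in dDAVP minus vehicle. The phosphodiesterase Pde3a differed by 0.35 ± 0.11 and -0.31 ± 0.11 in the same comparisons (0.13 and -0.14 after loess). In withdrawal minus vehicle the adenylyl cyclase Adcy6 differed by -0.27 ± 0.11 and the myosin light chain Myl9 by 0.39 ± 0.17. Of 13 tonicity genes 10 were measured, with medians of 0.02, 0.07 and -0.04 in dDAVP minus vehicle, withdrawal minus dDAVP and withdrawal minus vehicle (0.05, 0.05 and -0.05 after loess). Nfat5, the transcription factor of the tonicity response, was at 9.52 and 9.40 log2 in withdrawal, 8.88 and 9.38 in dDAVP, and 9.82 and 9.60 in vehicle, a difference of -0.58 ± 0.18 in dDAVP minus vehicle (limma adjusted p = 0.549) and of 0.33 ± 0.18 in withdrawal minus dDAVP. The taurine transporter Slc6a6 differed by -0.43 ± 0.15 in withdrawal minus dDAVP and -0.40 ± 0.15 in withdrawal minus vehicle. The amino acid transporter Slc38a2 differed by 0.40 ± 0.17 in dDAVP minus vehicle, and the protease Prss23 by 0.07 ± 0.11 in withdrawal minus vehicle.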

How the data were processed

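Total RNA of 6 rat inner medulla samples was labelled from 300 ng as biotinylated sense-strand cDNA and hybridised to whole-transcript gene arrays, per the labels' protocols. RMA is named in the submitters' processing notes, and the authors deposited 1 intensity per probe set and array. Its version is not given in the sources used here, nor is a genome build. The deposited intensity values were linear (30.2 to 10778.7), so log2 was taken, without a pseudocount or a filter. RMA normalizes between arrays, which would reduce a change common to most genes. The deposited arrays still differed in median intensity, from 156 in dDAVP replicate 1 to 182 in vehicle replicate 1. No scan date or detection call was used, and no check for batches was possible.

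Of 28524 probe sets, 14947 carried 1 gene symbol, 318 several and 13259 were unlisted; 14916 Entrez numbers matched RefSeq GRCr8 and no symbol changed. The probe set with the highest mean was kept for each of 14168 genes. limma 3.58.1 in R 4.3.3 fitted 1 mean per group to all 6 arrays (lmFit, eBayes, 3 residual and 3.21 prior degrees of freedom), two-sided, with Benjamini-Hochberg adjustment over all genes of a comparison and a threshold of 0.05. The fit was tested on simulated data. The number of arrays, 2 a group, limits the precision.

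Members, lists and tests were chosen with earlier results of these data known. Named genes were the members, a fixed set (Avpr2, Aqp1, Aqp2, Arg2, Nfat5, Rhag, Slc4a1, Plvap, Alas2), the higher and lower list member with the smallest p among those whose arrays did not overlap in each comparison, and the 5 genes with the highest Pearson r to each member, leaving out microRNAs, unnamed loci and olfactory or vomeronasal receptors. Of the fixed set Aqp1 was not measured. Genes counted by their order in the arrays that stand apart, and those below all other arrays in withdrawal, were named after their values were seen. Lists were described by counts and medians, not tested. Alternatives were 3 other scalings, a filter on dim genes, log2 of the value plus 16, the mean of a gene's probe sets, all probe sets, only the groups compared, other eBayes settings, a replicate block, and arrays left out.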

Additional observations from a re-analysis of the deposited data

How the results depend on the processing

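No difference of either transporter passed under any alternative run (adjusted p at least 0.142). With single arrays left out, Slc14a1 ran from -0.011 to 0.61 in dDAVP minus vehicle, from -1.37 to -0.67 in withdrawal minus dDAVP and from -1.07 to -0.37 in withdrawal minus vehicle. Slc14a2 ran from -0.38 to 0.37, from -0.058 to 0.55 and from -0.14 to 0.62 in the same comparisons. Their log2 ratio ran from -0.38 to 0.99 in dDAVP minus vehicle. Slc14a2 in dDAVP minus vehicle was -0.0062 ± 0.30 (SE) as deposited. It turned to 0.11 with array medians subtracted, 0.012 after loess and 0.015 after quantile normalization. Without both arrays that stand apart Slc14a2 turned to -0.058 in withdrawal minus dDAVP (-0.058 with loess as well). In withdrawal minus vehicle it turned to -0.14 (-0.092 with loess as well). Loess together with leaving out both arrays was chosen after seeing the data. The cause of these turns was not tested.

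The replicate numbers did not pair the arrays: same-numbered deviations correlated at -0.11, -0.0021 and -0.62 between groups. With a replicate block Slc14a1 in withdrawal minus dDAVP had an adjusted p = 0.409 and the block changed no call. Genes passing in limma ran from 0 to 2 in dDAVP minus vehicle and in withdrawal minus dDAVP, the 2 without dDAVP replicate 1. Genes at an unadjusted p under 0.05 were counted over the alternatives that kept 2 arrays in each group compared. They ran from 453 to 1651 in dDAVP minus vehicle (1052 in the model reported). The counts ran from 890 to 3464 in withdrawal minus dDAVP (2686) and from 128 to 411 in withdrawal minus vehicle (253). With all 28524 probe sets fitted the counts were 2817, 6364 and 665, which are probe sets and not genes. Neither transporter had a second probe set. Signal over background is unknown.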

Other observations

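Intercalated cells, the acid and base secreting cells of the collecting duct, and pericytes, which wrap the descending vasa recta, lie next to the cells that carry the transporters. Of 11 intercalated cell markers 10 were measured, with a summed intensity of 7040 to 9755 in withdrawal, 7549 to 7553 in dDAVP and 6339 to 8854 in vehicle. Their median difference was 0.13 in dDAVP minus vehicle, 0.15 in withdrawal minus dDAVP (-0.02 after loess) and 0.11 in withdrawal minus vehicle. The carbonic anhydrase Car2 differed by -0.38 ± 0.14 (SE) in dDAVP minus vehicle, and the anion exchanger Slc26a4 by 0.29 ± 0.09 in withdrawal minus dDAVP (0.07 after loess) and by 0.11 ± 0.09 in withdrawal minus vehicle (0.06 after loess). Of 9 pericyte and smooth muscle markers 8 were measured, with sums of 5972 to 6323 in withdrawal, 4753 to 6205 in dDAVP and 5110 to 5425 in vehicle. Their medians were -0.02 in dDAVP minus vehicle (0.05 after loess), 0.15 in withdrawal minus dDAVP (0.04 after loess) and 0.16 in withdrawal minus vehicle. The smooth muscle myosin Myh11 differed by 0.32 ± 0.12 in withdrawal minus dDAVP (0.14 after loess), Mcam by 0.21 ± 0.16 in dDAVP minus vehicle and Tagln by 0.56 ± 0.43 in withdrawal minus vehicle. Without dDAVP replicate 2 and vehicle replicate 1 the intercalated medians were -0.21 in dDAVP minus vehicle, 0.25 in withdrawal minus dDAVP and -0.12 in withdrawal minus vehicle, so the first and the last turned. The pericyte median in dDAVP minus vehicle also turned, to 0.10. No gene of either list passed in limma.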
